A study of Homo sapiens with 6 samples.

Results

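The genes described here are 39 human genes of DNA replication and S phase, taken by symbol from a fixed list: the origin licensing factors, the MCM helicase and its activators, the replicative polymerases, the sliding clamp and its loader, the single-strand binding protein RPA, enzymes of nucleotide supply, chromatin factors that work at the fork, and E2F1 with the E-type cyclins. All 39 were found among the 27988 genes named in the files, and all 39 passed the filter of at least 1 TPM (a transcript level corrected for transcript length and library size) in at least 3 libraries, as did 15647 genes in all. RNA came from HaCaT, a spontaneously immortalised line of human skin keratinocytes grown with serum and high glucose. In 3 libraries the cells had received 100 pmol of an siRNA against PSENEN, a subunit of the membrane protease γ-secretase, and in 3 libraries a mismatch siRNA, both with a lipid reagent. Both groups therefore share the transfection, and the effect of a lower PSENEN level cannot be told apart from other effects of that siRNA. The labels name extraction at 48 and 72 h after transfection and do not say which of these times was sequenced, nor whether the 3 libraries of a group came from separate cultures, so that p-values measure the spread between these libraries, which may be technical.

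Before S phase the origin recognition complex, CDC6 and CDT1 load the MCM2-7 ring onto DNA, and CDC45, the GINS complex and MCM10 then turn that ring into an active helicase. Polymerase alpha with its primase starts each strand, polymerases delta and epsilon extend them, PCNA holds the polymerases on DNA after loading by replication factor C, and FEN1 and LIG1 finish the lagging strand. Many of these genes are textbook targets of the E2F transcription factors, whose activity is freed when cyclin-dependent kinases phosphorylate the retinoblastoma protein, so that their transcripts are most abundant near the start of S phase in dividing cells such as basal keratinocytes. In bulk RNA, fewer cells in S phase and less RNA per cell cannot be told apart.

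Promoter sequence was read from RefSeq on GRCh38.p14, as 250 bases before to 50 bases after each annotated start, and 33 of the 39 genes matched. The 10 windows below run from 80 bases before the start and include its first 20 bases, 5′ to 3′ on the gene's strand. Capitals mark the E2F-type words TTTCCCGC, TTTGGCGC, TTTCGCGC and TTTGCCGC on either strand, the reverse complement being printed where the word lies on the other strand. These are all 10 genes whose coding sequence was covered more in the PSENEN siRNA libraries without overlap between groups, as described below; 8 hold such a word in their promoter and 2, RFC4 and RRM1, hold none, while the word of POLA1 lies upstream of the window.
CDT1 (chr16:88803709-88803808, plus strand): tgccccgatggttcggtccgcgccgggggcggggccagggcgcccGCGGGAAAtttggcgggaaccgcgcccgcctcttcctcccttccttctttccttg
GINS3 (chr16:58392391-58392490, plus strand): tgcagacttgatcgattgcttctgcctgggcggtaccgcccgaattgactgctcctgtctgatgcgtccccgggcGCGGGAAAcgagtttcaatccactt
POLE (chr12:132687323-132687422, minus strand): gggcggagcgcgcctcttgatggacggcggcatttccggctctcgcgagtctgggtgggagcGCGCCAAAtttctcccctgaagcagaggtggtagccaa
E2F1 (chr20:33686366-33686465, minus strand): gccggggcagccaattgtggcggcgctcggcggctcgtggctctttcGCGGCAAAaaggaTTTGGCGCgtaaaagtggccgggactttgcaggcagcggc
TYMS (chr18:657573-657672, plus strand): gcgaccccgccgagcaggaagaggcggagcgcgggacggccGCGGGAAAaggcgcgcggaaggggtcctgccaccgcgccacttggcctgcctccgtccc
POLA1 (chrX:24693838-24693937, plus strand): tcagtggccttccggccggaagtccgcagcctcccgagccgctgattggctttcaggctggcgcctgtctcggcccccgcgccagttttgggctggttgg
MCM2 (chr3:127598331-127598430, plus strand): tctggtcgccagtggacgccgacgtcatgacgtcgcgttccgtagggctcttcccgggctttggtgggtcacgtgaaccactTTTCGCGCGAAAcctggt
MCM3 (chr6:52284723-52284822, minus strand): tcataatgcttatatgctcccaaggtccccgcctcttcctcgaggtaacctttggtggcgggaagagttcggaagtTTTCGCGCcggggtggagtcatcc
RFC4 (chr3:186806463-186806562, minus strand): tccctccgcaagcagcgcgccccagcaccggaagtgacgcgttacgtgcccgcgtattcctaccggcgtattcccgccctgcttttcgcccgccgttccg
RRM1 (chr11:4094605-4094704, plus strand): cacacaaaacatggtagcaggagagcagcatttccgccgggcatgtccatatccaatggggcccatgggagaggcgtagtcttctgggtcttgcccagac
At least 1 of the 4 words was present in 17 of the 33 member promoters (51.5%), against 3.33% of the 27305 promoters given. In CDT1, TYMS and GINS3 the capital letters are the same word on the same strand, at 35, 39 and 5 bases before the start. E2F1 held a pair of words at 33 and 20 bases before its own start, and in MCM2 the words TTTCGCGC of both strands overlap. A CCAAT box (CCAAT, either strand) was present in 63.6% of member promoters against 35.7% of all, an SP1-type word (GGGCGG) in 75.8% against 44.6%, and the word TTTGAA, a core found in late cell cycle promoters, in 3.03% against 15.4%. A match describes the letters in this window and is no evidence of binding. The 17 genes with an E2F word had a median log2 difference of 0.12 and the 16 without one of 0.071 in TPM; in coding coverage, defined below, the medians were 0.12 and 0.18.

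The files were made by StringTie from 1 library each; it names a transcript after a GENCODE gene when it matches the annotation and otherwise reports it as a new assembled transcript. Gene positions below are those of GENCODE 29 on GRCh38, and levels were read in 3 ways. TPM of annotated transcripts is the sum over the transcripts that carry the gene's name. TPM with assembled transcripts adds those that share an intron with that gene alone. Coding coverage is the mean read depth over the gene's annotated coding bases from every transcript on its strand, in ppm of its sum over protein-coding genes; it was added after the first results were seen. Differences are log2 of (value + 1), PSENEN siRNA minus mismatch siRNA, which understates the change of low genes, and errors are SD or, for differences, standard errors (n = 3 libraries per group).

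Coverage gave an estimated 9.16 to 11.9 gigabases of aligned sequence in the PSENEN siRNA libraries and 11.5 to 15.6 in the mismatch siRNA libraries (exact two-sided permutation p = 0.2, where 0.1 is the smallest p that 3 against 3 libraries allow). The files hold no read counts, so no counting intervals are given. PSENEN itself was at 1.75, 2.08 and 1.496 TPM with the PSENEN siRNA and 6.58, 8.85 and 6.55 TPM with the mismatch siRNA. Every library with the PSENEN siRNA lay below every control, and the log2 difference was -1.58 with a standard error of 0.18 (limma adjusted p = 0.0471). The call is not firm: the difference stayed between -1.66 and -1.45 with each library left out, and the adjusted p was over 0.05 each time. In coding coverage PSENEN differed by -2.14 (limma adjusted p = 0.0119).

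No replication gene passed the test in TPM of annotated transcripts, and those higher than every control by every measure were CDT1, E2F1 and TYMS. GINS3 also stood apart by every measure, but lower in TPM of annotated transcripts and higher by the others. The measures were read from the same libraries, and the share of all genes apart by every measure was not computed. The licensing factor CDT1 was 2.24 times its control mean in TPM, 1.46 times with assembled transcripts and 1.62 times in coding coverage. In the same order the transcription factor E2F1 was at 1.91, 1.31 and 1.35 times, and thymidylate synthase TYMS at 1.22, 1.22 and 1.33 times. By TPM of annotated transcripts 0 of the 39 passed a limma adjusted p of 0.05, where 64 of 15647 genes did (0.409%; 0.128% higher and 0.281% lower with the PSENEN siRNA), and 8 of the 39 had an unadjusted p under 0.05, against 13.0% of all genes. The log2 difference was positive for 23 and negative for 16, with a median of 0.096 against -0.037 over all genes tested, of which 45.4% were positive. In 9 genes every PSENEN siRNA library was above every mismatch siRNA library, against 8.21% of all genes tested (23.1% of the members), and in 3 every one was below, against 13.7% (7.69% of the members). The 9 were CDT1, RFC2, E2F1, CHAF1A, CHAF1B, POLA1, TYMS, POLE and ORC1, and the 3 were GINS3, RRM2 and MCM4.

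Coding coverage gave 33 positive and 6 negative differences, with a median of 0.12 against -0.034 over the 12099 genes tested, of which 45.4% were positive. By this measure 1 member passed, GINS3, higher in PSENEN siRNA libraries, where 92 of 12099 genes passed in that direction (0.76%), 2.06% passed as lower and 2.82% in all. The groups did not overlap in 10 members that were higher, against 10.6% of all genes in that direction, and in 1, CCNE2, that was lower, against 16.6%. With assembled transcripts added to TPM, 25 differences were positive (43.6% over all genes), none of the 39 passed (80 of 16362 genes did, 0.489%; 0.153% higher and 0.336% lower), and the groups did not overlap in 4 higher members (7.82% of all genes) and 1 lower member (14.3%). POLA1 and POLE were higher without overlap by TPM of annotated transcripts and by coding coverage. The share of all genes higher without overlap by both was not computed. The sign was the same by all 3 measures for 24 members, positive for 19 and negative for CCNE2, MCM4, RFC3, RPA1 and UHRF1, and it differed between measures for 15.

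**Figure D1:**
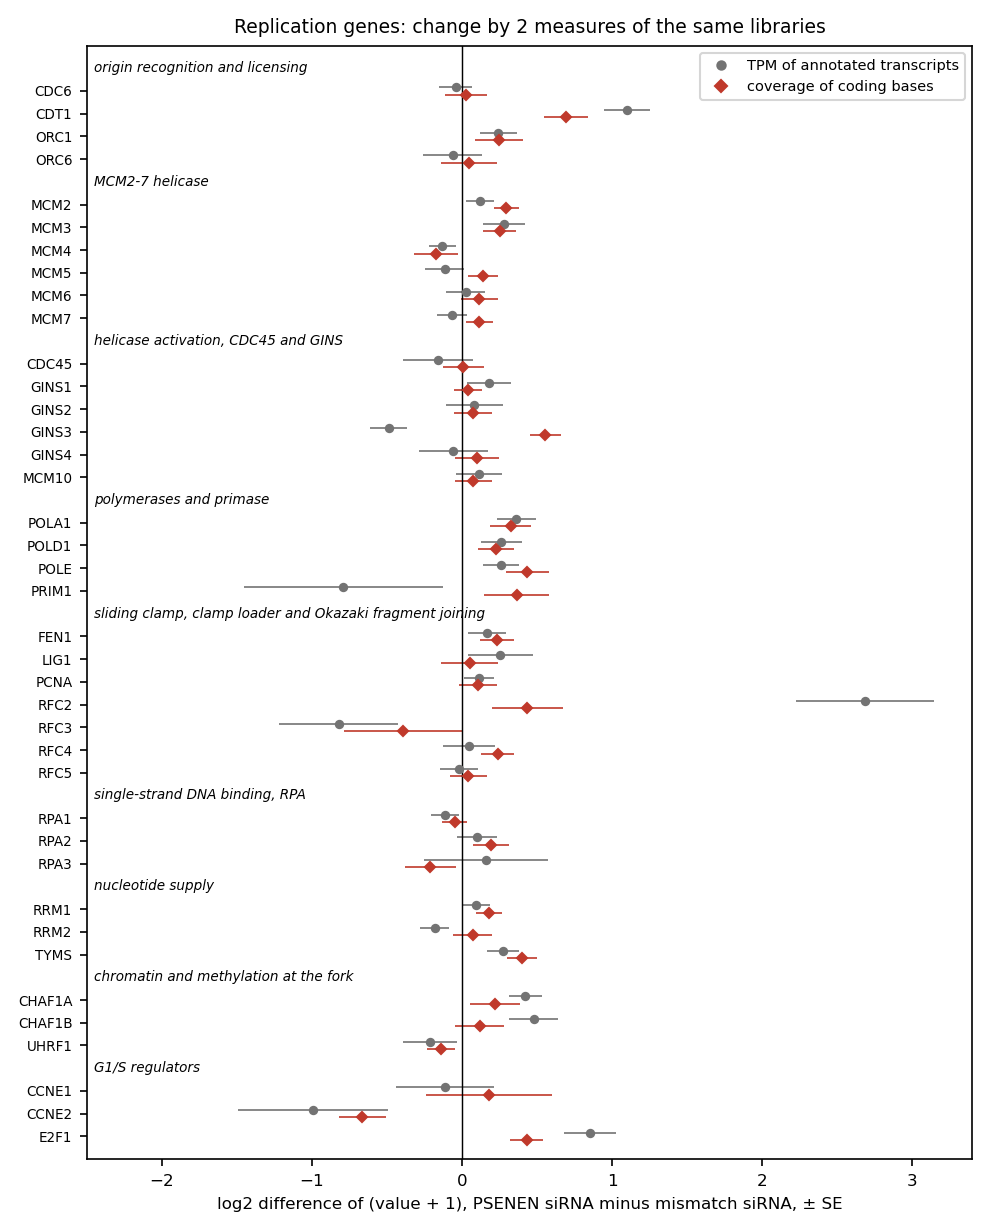
Log2 differences of the 39 genes by role (x axis, log2 of value + 1, PSENEN siRNA minus mismatch siRNA, 3 libraries each), as TPM of annotated transcripts (grey circles) and as coverage of coding bases (red diamonds), with bars of 1 standard error. Most points lie within 0.5 of 0; CDT1 and E2F1 lie to the right by both measures, CCNE2 to the left by both, and GINS3, PRIM1 and RFC2 are far apart between the measures.

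Origin licensing is represented by ORC1 and ORC6, subunits of the origin recognition complex, and by CDC6 and CDT1. CDT1 (ENSG00000167513, chr16:88803213-88809258, plus strand), which brings MCM2-7 to the origin, was at 28.9, 41.0 and 35.8 TPM with the PSENEN siRNA and 16.5, 15.9 and 14.8 TPM with the mismatch siRNA. The lowest PSENEN siRNA library was well above the highest control, and the log2 difference was 1.10 with a standard error of 0.15 (limma adjusted p = 0.0611). This TPM includes CDT1-202, a retained-intron form. It was at 14.6, 14.4 and 0.285 TPM with the PSENEN siRNA and 8.30, 10.1 and 0.338 TPM with the mismatch siRNA. In coding coverage CDT1 stood at 85.0, 78.8 and 102 ppm with the PSENEN siRNA and 53.8, 46.6 and 63.0 ppm with the mismatch siRNA. The order of the groups was the same with a smaller difference, 0.69 with a standard error of 0.15 (limma adjusted p = 0.0589). Adding assembled transcripts gave 0.52 (limma adjusted p = 0.195): such transcripts held 40.0%, 0% and 0% of CDT1's TPM in the PSENEN siRNA libraries and 47.0%, 46.0% and 40.9% in the controls. ORC1, the largest subunit, was at 15.9, 14.1 and 16.9 TPM with the PSENEN siRNA and 13.0, 12.3 and 13.8 TPM with the mismatch siRNA. Its groups were close together without overlap in TPM, 0.24 (limma adjusted p = 0.468), and overlapped in coding coverage, 0.25 (limma adjusted p = 0.445). CDC6, the most abundant of the 4, was at 36.4, 34.6 and 39.3 TPM with the PSENEN siRNA and 40.8, 38.1 and 34.7 TPM with the mismatch siRNA, with groups that overlapped and a difference of -0.041 (limma adjusted p = 0.903). ORC6 differed by -0.062 in TPM and 0.049 in coding coverage, and its most abundant annotated transcript is a retained-intron form.

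The 6 subunits of the MCM2-7 helicase ring differed in level by TPM of annotated transcripts. MCM7 led them, at 132, 119 and 131 TPM with the PSENEN siRNA and 142, 136 and 123 TPM with the mismatch siRNA, with overlapping groups. MCM2 was at 239.5, 227 and 243 ppm with the PSENEN siRNA and 203, 184 and 191 ppm with the mismatch siRNA in coding coverage. All 3 PSENEN siRNA libraries were above all 3 controls, by 0.30 with a standard error of 0.082 (limma adjusted p = 0.109), while TPM overlapped and differed by 0.12 (limma adjusted p = 0.624). MCM3 did not overlap in coding coverage either, at 128, 134 and 156 ppm with the PSENEN siRNA and 124, 119 and 108 ppm with the mismatch siRNA, a difference of 0.25 (limma adjusted p = 0.262). MCM4 went the other way in TPM, at 88.2, 81.1 and 86.6 TPM with the PSENEN siRNA and 99.1, 90.6 and 90.9 TPM with the mismatch siRNA. The gap between its groups was narrow, -0.13 (limma adjusted p = 0.578), and in coding coverage library 3 of the PSENEN siRNA group lay within the range of the controls. MCM5, MCM6 and MCM7 overlapped by both measures, with coding coverage differences of 0.14, 0.11 and 0.12. The subunits of this single ring thus ranged from -0.17 to 0.30 in coding coverage.

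Helicase activation is carried out by CDC45, the 4 GINS subunits and MCM10. GINS3 (ENSG00000181938, chr16:58295080-58406144, plus strand) was at 7.78, 9.32 and 8.85 TPM with the PSENEN siRNA and 12.4, 13.0 and 12.2 TPM with the mismatch siRNA by annotated transcripts. All PSENEN siRNA libraries were below all controls, -0.49 with a standard error of 0.12 (limma adjusted p = 0.19). In coding coverage the same gene was at 37.3, 35.9 and 39.7 ppm with the PSENEN siRNA and 25.7, 25.5 and 24.5 ppm with the mismatch siRNA. The order was reversed, again without overlap, at 0.56 with a standard error of 0.10 (limma adjusted p = 0.0409). With any library left out the difference was between 0.52 and 0.59 and the adjusted p between 0.0804 and 0.138. With assembled transcripts GINS3 differed by 0.66 (limma adjusted p = 0.0691). GINS1, GINS2 and GINS4, which form an equimolar complex with GINS3, overlapped between groups, with coding coverage differences of 0.043, 0.074 and 0.10. CDC45, the most abundant in TPM, was at 27.2, 28.96 and 23.1 TPM with the PSENEN siRNA and 40.5, 29.4 and 21.6 TPM with the mismatch siRNA, with the highest and the lowest library both among the controls. MCM10 differed by 0.11 in TPM and 0.076 in coding coverage.

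The 2 measures of GINS3 differ in the naming of 1 transcript. GINS3-201 (ENST00000318129) was listed at 0 in each PSENEN siRNA library, and the controls had 9.26, 6.59 and 6.52 TPM of it. An assembled transcript with exactly the introns of GINS3-201 reached 13.8, 11.8 and 13.1 TPM with the PSENEN siRNA and was listed in no control. It ended at position 58405481 of chromosome 16, 663 bases before the annotated end at 58406144. In mismatch siRNA library 2 an assembled transcript with introns of GINS3-203, at 1.15 TPM, ended at the same base. GINS3-201 and the assembled transcript with its introns summed to 12.9 ± 0.996 against 7.46 ± 1.56 TPM (SD, n = 3, exact two-sided permutation p = 0.1). Assembled transcripts held 59.9% ± 4.01 of GINS3's TPM with the PSENEN siRNA and 5.99% ± 5.26 with the mismatch siRNA.

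The polymerase genes had 4 of 4 positive differences in coding coverage and 3 of 4 in TPM, where PRIM1 differed by -0.79, against 45.4% of all genes by each measure, and none passed. POLE, the catalytic subunit of the leading-strand polymerase epsilon and the most abundant in TPM, was at 23.0, 26.6 and 26.0 TPM with the PSENEN siRNA and 21.1, 18.9 and 22.6 TPM with the mismatch siRNA. The ranges nearly met, and the difference was 0.26 (limma adjusted p = 0.428). In coding coverage POLE was at 53.1, 53.4 and 58.1 ppm with the PSENEN siRNA and 45.01, 32.7 and 44.3 ppm with the mismatch siRNA. Here the groups were further apart, by 0.44 with a standard error of 0.14 (limma adjusted p = 0.158). POLA1, the catalytic subunit of polymerase alpha, was at 15.1, 15.6 and 12.6 TPM with the PSENEN siRNA and 11.5, 10.9 and 10.5 TPM with the mismatch siRNA. It was higher without overlap in TPM, 0.36 (limma adjusted p = 0.328), and in coding coverage, 0.32 (limma adjusted p = 0.261), where it was at 37.2, 37.1 and 28.1 ppm with the PSENEN siRNA and 27.8, 26.1 and 26.6 ppm with the mismatch siRNA. POLD1, the catalytic subunit of polymerase delta, overlapped by both measures, with 0.26 and 0.23. PRIM1, the primase subunit that makes the RNA primer, was at 24.2, 25.9 and 3.93 TPM with the PSENEN siRNA and 25.6, 29.6 and 20.3 TPM with the mismatch siRNA. A single PSENEN siRNA library was far below the rest, and in coding coverage that library, at 84.7 ppm, was above every control. Assembled transcripts with introns of PRIM1 that run past its end towards its neighbour NACA were listed in PSENEN siRNA libraries 2 and 3. They summed to 20.4 TPM in library 2 and 10.7 TPM in library 3, and none reached 1 TPM in any other library. Of those in library 2, 1 at 14.6 TPM had 11 of 15 introns annotated in PRIM1, and 1 at 5.87 TPM had 11 of 11. Library 2 was nevertheless near library 1, which had none, in annotated PRIM1, and the part of these transcripts in its TPM was not tested.

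At the clamp, PCNA was the most abundant of all 39 genes, at 221, 245 and 242 TPM with the PSENEN siRNA and 237, 222 and 197 TPM with the mismatch siRNA, with overlapping groups and a difference of 0.11 (limma adjusted p = 0.677). RFC2, a small subunit of the clamp loader, had the widest difference in TPM, at 39.1, 17.5 and 31.6 TPM with the PSENEN siRNA and 4.28, 5.92 and 1.48 TPM with the mismatch siRNA. Its groups were far apart, 2.69 with a standard error of 0.46 (limma adjusted p = 0.0866). Assembled transcripts, however, held 37.5% ± 34.4 of its TPM with the PSENEN siRNA and 87.8% ± 9.73 with the mismatch siRNA. With them included RFC2 was at 39.1, 54.0 and 57.2 TPM with the PSENEN siRNA and 53.6, 25.4 and 28.3 TPM with the mismatch siRNA, overlapping, with a difference of 0.54 (limma adjusted p = 0.475). In coding coverage it differed by 0.44 (limma adjusted p = 0.36). RFC4 was at 101, 111 and 112 ppm with the PSENEN siRNA and 100.2, 80.7 and 95.3 ppm with the mismatch siRNA in coding coverage, a narrow separation of 0.24 (limma adjusted p = 0.289). RFC3 varied widely among the controls in coding coverage, at 28.3, 47.0 and 40.8 ppm with the PSENEN siRNA and 81.5, 26.4 and 57.6 ppm with the mismatch siRNA, and its groups overlapped. RFC5, the flap nuclease gene FEN1 and the ligase gene LIG1 overlapped by both measures, with coding coverage differences of 0.041, 0.24 and 0.050.

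RPA, which coats single-stranded DNA, did not separate the groups. RPA1, the large subunit, was at 56.5, 64.1 and 61.6 TPM with the PSENEN siRNA and 64.7, 68.9 and 63.8 TPM with the mismatch siRNA, and RPA2 differed by 0.20 (limma adjusted p = 0.422) in coding coverage. RPA3, the small subunit, was between 0.946 and 3.44 TPM by annotated transcripts, while assembled transcripts held 92.8% to 98.1% of its TPM in each library. With these it was at 46.3, 50.8 and 41.3 TPM with the PSENEN siRNA and 57.5, 53.6 and 47.5 TPM with the mismatch siRNA. The 3 subunits therefore differ less in level than the annotated transcripts alone would show, and the groups of RPA3 overlapped.

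Of the enzymes that supply deoxynucleotides, TYMS, which makes thymidylate, was at 42.8, 40.5 and 48.2 TPM with the PSENEN siRNA and 37.7, 36.3 and 34.2 TPM with the mismatch siRNA. All PSENEN siRNA libraries were above all controls, 0.27 with a standard error of 0.11 (limma adjusted p = 0.368). In coding coverage TYMS was at 130.4, 123 and 151 ppm with the PSENEN siRNA and 101, 104 and 99.2 ppm with the mismatch siRNA. The separation was wider, at 0.40 with a standard error of 0.10 (limma adjusted p = 0.0914). No assembled transcript of TYMS was listed in any library, so the 2 TPM measures are the same for it. RRM1, the large subunit of ribonucleotide reductase and the most abundant of the 3, was at 89.8, 103 and 96.8 TPM with the PSENEN siRNA and 90.2, 91.0 and 88.7 TPM with the mismatch siRNA, which overlapped, while coding coverage, at 217, 229 and 252 ppm with the PSENEN siRNA and 209, 203 and 201 ppm with the mismatch siRNA, separated them by 0.18 (limma adjusted p = 0.31). RRM2, the small subunit made in S phase, was at 52.5, 52.3 and 46.6 TPM with the PSENEN siRNA and 59.5, 57.6 and 54.7 TPM with the mismatch siRNA. It was lower without overlap in TPM, -0.18 (limma adjusted p = 0.487), and overlapped in coding coverage, 0.071 (limma adjusted p = 0.802). Of the 31-base words in its transcripts 22.7% are shared, mainly with AC007240.1, which lies in the same place, so its assignment is uncertain.

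Chromatin factors of the fork were the 2 larger subunits of chromatin assembly factor 1 and UHRF1, which recruits maintenance methylation. CHAF1A was at 32.6, 29.9 and 27.9 TPM with the PSENEN siRNA and 21.9, 21.2 and 23.6 TPM with the mismatch siRNA. The groups were apart in TPM, 0.42 with a standard error of 0.11 (limma adjusted p = 0.202), and overlapped in coding coverage, 0.22 (limma adjusted p = 0.503). CHAF1B was at 6.39, 7.84 and 8.08 TPM with the PSENEN siRNA and 5.13, 4.35 and 5.72 TPM with the mismatch siRNA. Its groups too were apart in TPM, 0.48 (limma adjusted p = 0.309), and overlapped in coding coverage, 0.12 (limma adjusted p = 0.732); 14.1% of its 31-base words are shared, mainly with MORC3, which overlaps it on the same strand. UHRF1 was negative by each measure, -0.22 in TPM and -0.14 in coding coverage, and shares 27.0% of its words, mainly with AC112777.1.

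The G1/S regulators diverged. E2F1 (ENSG00000101412, chr20:33675683-33686404, minus strand), the transcription factor that drives many of the other members, was at 11.3, 13.7 and 13.1 TPM with the PSENEN siRNA and 7.41, 5.20 and 7.33 TPM with the mismatch siRNA. The groups did not overlap, the difference being 0.85 with a standard error of 0.17 (limma adjusted p = 0.123). In coding coverage E2F1 was at 43.1, 45.01 and 45.3 ppm with the PSENEN siRNA and 32.0, 36.5 and 29.9 ppm with the mismatch siRNA. The difference was smaller, 0.43 with a standard error of 0.11 (limma adjusted p = 0.0945), and it was 0.36 (limma adjusted p = 0.258) with assembled transcripts, which held 11.3% ± 10.4 of its TPM with the PSENEN siRNA and 39.1% ± 12.9 with the mismatch siRNA. CCNE2, cyclin E2, was at 15.2, 14.0 and 13.4 ppm with the PSENEN siRNA and 24.9, 26.1 and 18.8 ppm with the mismatch siRNA in coding coverage. It was the lone member lower without overlap by that measure, -0.66 with a standard error of 0.16 (limma adjusted p = 0.0768). In TPM it was at 2.19, 0.401 and 4.82 TPM with the PSENEN siRNA and 5.14, 5.06 and 4.49 TPM with the mismatch siRNA, where PSENEN siRNA library 3 lay among the controls. CCNE1, cyclin E1, was between 0.327 and 1.55 TPM, near the filter, and overlapped by both measures. E2F1 and CCNE2, both textbook E2F targets, thus differed in opposite directions, each without passing the adjusted threshold.

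**Figure D2:**
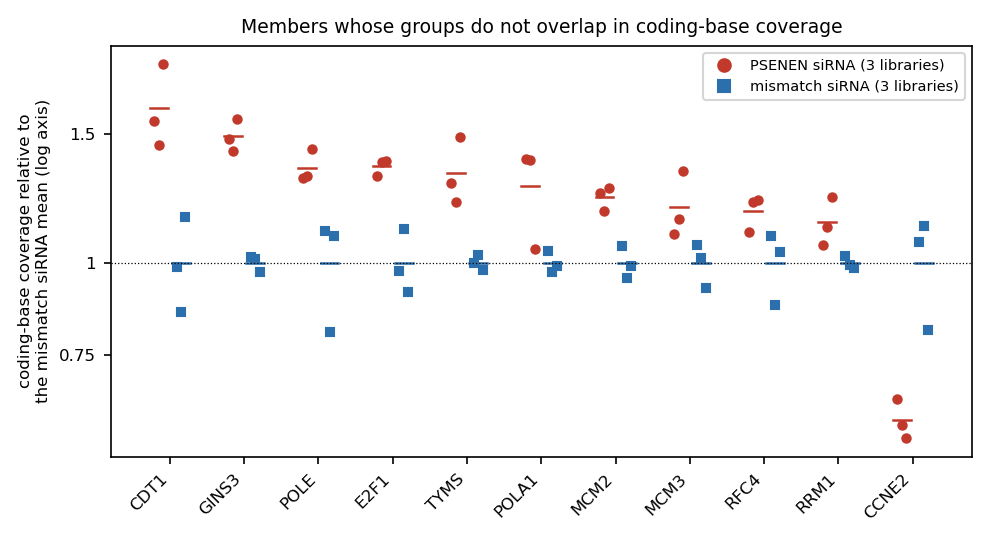
Coverage of coding bases in each library, divided by the mean of the 3 mismatch siRNA libraries (log y axis), for the 11 members whose groups do not overlap by this measure; red circles are PSENEN siRNA libraries, blue squares mismatch siRNA libraries, and short lines the means of 3. The 10 genes other than CCNE2 lie above 1 in the PSENEN siRNA libraries and CCNE2 lies below it; the gap between groups is narrow for POLA1, MCM3, RFC4 and RRM1.

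The share of TPM held by assembled transcripts differed between members. In 7 members (MCM2, MCM6, TYMS, RRM1, RRM2, FEN1 and PRIM1) no assembled transcript shared an intron with that gene alone in any library, and in 11 such transcripts held at least 20% of TPM on average. PRIM1 is among the 7 because the assembled transcripts described above for it hold introns annotated in more than 1 gene, so its TPM leaves them out. Of its 31-base words 16.5% are shared, mainly with AC117378.1, which overlaps it on the same strand. Over all genes, assembled transcripts that share an intron held 5.09% to 5.44% of TPM in the PSENEN siRNA libraries and 5.61% to 6.33% in the controls (exact p = 0.1), and the files of the controls hold more transcripts, 185198 to 193153 against 167955 to 181298. The part of these differences in the members' values was not tested beyond the comparison of the 3 measures. Whether the assembly used strand is not given in the sources used here, and several members overlap a gene on the other strand: TYMS (ENOSF1 and TYMSOS), MCM2 (TPRA1), RFC4 (EIF4A2), CCNE2 (INTS8 and NDUFAF6), CHAF1A (UBXN6), RRM1 (RRM1-AS1) and GINS3 (AC009118.1 among others), so their values may hold reads of those genes. The most abundant annotated transcript was a coding form for 36 of 39 members, the others being LIG1, ORC6 and RPA3.

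**Figure D3:**
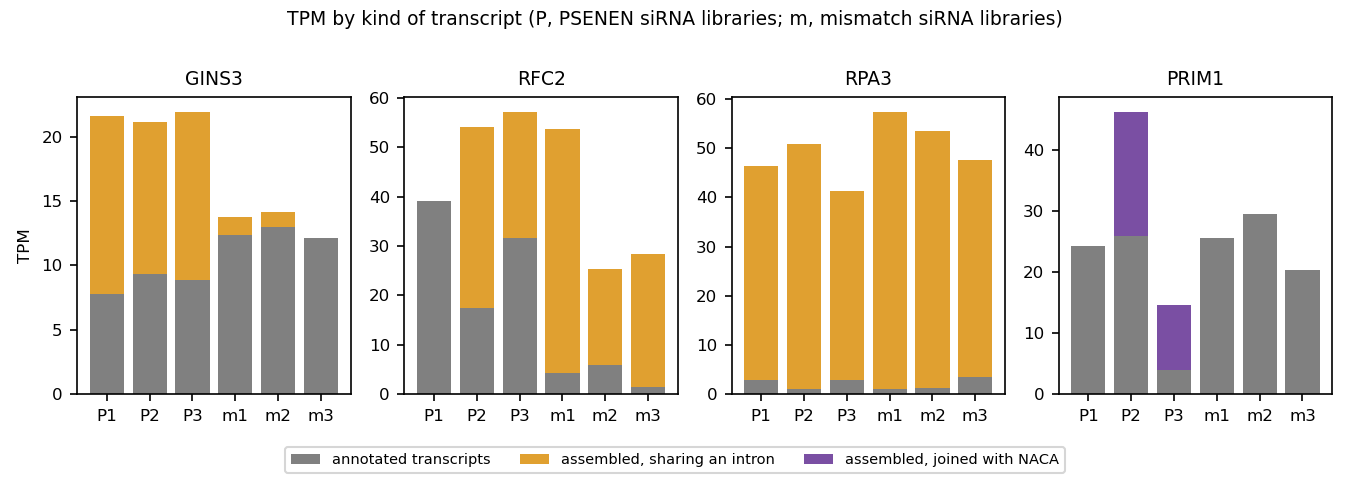
TPM (y axis) of GINS3, RFC2, RPA3 and PRIM1 in each library (P1 to P3, PSENEN siRNA; m1 to m3, mismatch siRNA), split into annotated transcripts (grey) and assembled transcripts that share an intron with that gene alone (orange). Purple, labelled as joined with NACA, marks assembled transcripts with introns of PRIM1 that run past its end towards NACA. Grey bars alone put GINS3 lower and RFC2 higher in the PSENEN siRNA libraries, while whole bars put GINS3 higher and leave RFC2 overlapping.

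Libraries of the same group differed in these genes. In coding coverage 19, 29 and 33 of the 39 genes were above their own mean in PSENEN siRNA libraries 1 to 3, and 25, 11 and 3 in mismatch siRNA libraries 1 to 3. Control library 1, which was also the deepest, thus had more of these genes above their mean than PSENEN siRNA library 1. The summed coverage of the 39 genes was 4344, 4559 and 4777 ppm with the PSENEN siRNA and 4635, 4095 and 3862 ppm with the mismatch siRNA, so that the groups overlapped. Without mismatch siRNA library 1 the count of positive differences was again 33 and the median rose to 0.23; without mismatch siRNA library 3 it was 25 of 39 with a median of 0.11, and without PSENEN siRNA library 3 it was 28 with a median of 0.087. In TPM of annotated transcripts the count ranged from 22 to 27 with any library left out.

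**Figure D4:**
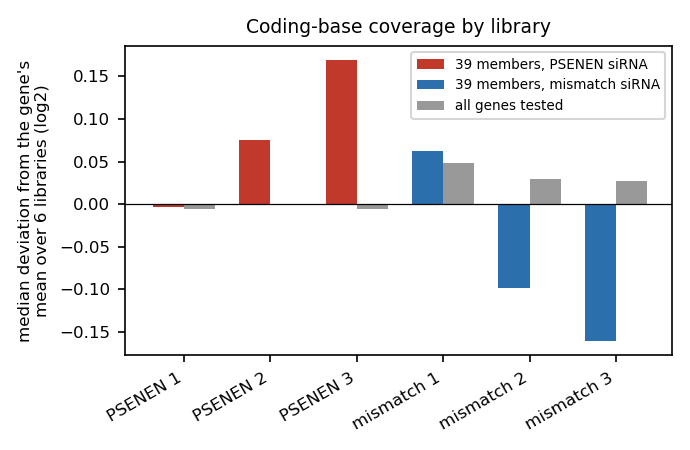
Median deviation of coding coverage from each gene's own mean over the 6 libraries (y axis, log2), for the 39 members (red, PSENEN siRNA; blue, mismatch siRNA) and for all genes tested (grey). The members are highest in PSENEN siRNA library 3 (0.17) and lowest in mismatch siRNA library 3 (-0.16), and mismatch siRNA library 1 (0.063) lies above PSENEN siRNA library 1 (-0.0031).

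Other genes of replication and of the G1/S switch were read from the same fits by lists. Of 13 further licensing and firing factors none passed by either measure, with 11 positive in TPM and 8 in coding coverage. ORC2, another origin recognition subunit, was at 14.2 ± 3.53 against 8.37 ± 0.271 TPM without overlap, 0.67 (limma adjusted p = 0.248), and overlapped in coding coverage, at 37.8 ± 4.88 against 32.4 ± 4.08 ppm, 0.22 (limma adjusted p = 0.454). CDC7, the kinase that fires origins, was at 14.4 ± 2.83 against 9.55 ± 1.88 ppm in coding coverage, 0.54 (limma adjusted p = 0.203). Of 15 further fork enzymes and 6 fork protection factors none passed; CLSPN, the checkpoint mediator claspin, was at 9.88 ± 1.25 against 17.2 ± 9.05 TPM, -0.64 (limma adjusted p = 0.477). Of 10 further genes of nucleotide supply none passed, and 2 lay past the size named, MTHFD1 of one-carbon metabolism, at 75.2 ± 8.15 against 51.1 ± 19.7 TPM with a difference of 0.63 (limma adjusted p = 0.46), and CTP synthase CTPS1, at 20.4 ± 0.536 against 33.2 ± 9.62 TPM with -0.64 (limma adjusted p = 0.278). Among 7 chromatin genes the histone chaperone ASF1B was at 29.3 ± 3.599 against 45.7 ± 8.39 TPM, -0.62 (limma adjusted p = 0.213). By the other measure of the 2, CDC7 (TPM, 0.78), CLSPN (coding coverage, -0.23) and CTPS1 (coding coverage, -0.19) overlapped between groups, while MTHFD1 (0.41) and ASF1B (-0.29) did not overlap in coding coverage. Genes are named here when the groups did not overlap and the log2 difference was at least 0.5 in size.

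The list of 25 genes of E2F, RB and G1/S control had 7 positive and 18 negative differences in TPM. In coding coverage it had 9 positive and 16 negative, and 45.4% of all genes were positive by each measure. In coding coverage the groups did not overlap in 4 higher genes, against 10.6% of all genes, and in 4 lower ones, against 16.6%. In TPM they did not overlap in 2 higher genes, against 8.21% of all genes, and in 7 lower ones, against 13.7%. In this list none passed in TPM, against 0.409% of all genes. In coding coverage 1 passed, as lower, against 2.06% of all genes in that direction. That gene was CCND1, cyclin D1, which activates CDK4 and CDK6 in G1, at 244, 255 and 259 ppm with the PSENEN siRNA and 449, 399 and 347 ppm with the mismatch siRNA. All PSENEN siRNA libraries were below all controls, and CCND1 fell by 0.65 on the log2 scale (limma adjusted p = 0.037), against -0.67 (limma adjusted p = 0.122) in TPM. That call outlasted 1 of the 6 left-out libraries, mismatch siRNA library 3, with adjusted p-values from 0.0479 to 0.125 by limma. CCND2, cyclin D2, was at 136 ± 9.27 against 200.2 ± 38.9 ppm in coding coverage, -0.54 (limma adjusted p = 0.0984). CDK6 was at 22.1 ± 5.69 against 33.0 ± 7.11 TPM, -0.57 (limma adjusted p = 0.394). CDKN1A, the kinase inhibitor p21, was at 23.1 ± 3.19 against 36.6 ± 5.15 TPM, -0.64 (limma adjusted p = 0.176). These 3 genes were lower in every PSENEN siRNA library than in any control without passing the test. E2F3, an activating E2F, was at 1.96 ± 0.433 against 3.33 ± 0.693 TPM, -0.54 (limma adjusted p = 0.348), and E2F4, a repressive one, at 44.5 ± 17.8 against 17.9 ± 3.42 TPM, 1.19 (limma adjusted p = 0.246). In coding coverage CDK6 (-0.44), CDKN1A (-0.43) and E2F4 (0.47) again did not overlap, with smaller differences, and E2F3 (-0.13) overlapped. In the list of 9 checkpoint genes RAD9A (0.62) and ETAA1 (0.65) were higher without overlap in TPM, with adjusted p-values of 0.276 and 0.319 by limma, and in coding coverage no gene of the list was apart. The 2 further MCM genes, MCM8 and MCM9, did not separate the groups.

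A list of 18 genes of G2 and M phase, which peak later in the cycle, gave a median difference of 0.0043 in TPM and 0.022 in coding coverage, with 10 positive and 8 negative by each, and none passed. The difference between this list and the replication genes was not tested. Keratinocyte markers had 12 of 12 negative differences in coding coverage, where 45.4% of all genes were positive. Of these, 3 passed, CDH1, KRT17 and TP63 (with a library left out, 0, 2 and 0 of 6 times), and 2.06% of all genes passed as lower. In 8 markers every PSENEN siRNA library was below every control, against 16.6% of all genes. The summed coverage of the 12 markers was 11057 to 12417 ppm with the PSENEN siRNA and 15809 to 22494 ppm with the mismatch siRNA. In TPM of annotated transcripts 11 of 12 were negative, and 7 were lower without overlap, against 13.7% of all genes. There none of the markers passed and their sums overlapped, at 4267 to 5216 TPM against 4971 to 9369.6 TPM. Their part in the replication genes' values was not tested. Markers of other cell types were low: fibroblast markers summed to at most 1.48 ppm in any library, with COL1A2, PDGFRB and LUM, 3 of 6, at 0 throughout, endothelial markers to at most 1.43 ppm, with PECAM1 and KDR, 2 of 4, at 0, and melanocyte markers to at most 5.87 ppm, with TYR and DCT, 2 of 5, at 0. Immune markers summed to 17.3 to 20.2 ppm with the PSENEN siRNA and 5.17 to 16.7 ppm with the mismatch siRNA, with CD3E at 0 throughout; CD68, which is not limited to immune cells, was at 14.3 to 15.4 ppm and 0.797 to 11.8 ppm.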

How the data were processed

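RNA sequencing measured 6 HaCaT libraries, 3 per group. The authors deposited a StringTie assembly per library with TPM, FPKM and coverage for each transcript, per the file headers; the version, options, strandedness and aligner were not given in the sources used here. Bowtie 0.12.2 is listed in the submitters' processing notes together with mm8 and mm9, which are builds of the mouse genome, while 98.1% to 98.2% of the reference transcripts lie where GENCODE 29 on GRCh38 places them.

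Gene values were sums of TPM over transcripts with a gene's reference name. limma 3.58.1 (R 4.3.3) with an intensity trend was fitted on log2(TPM + 1), for genes that reach 1 TPM in 3 or more libraries, two-sided, with Benjamini-Hochberg adjustment over all genes tested, a threshold of 0.05 and 4 residual degrees of freedom. Coding coverage used bedtools 2.31.1 and was fitted alike. Python 3.11.15 with NumPy 2.4.6, pandas 2.3.3 and matplotlib 3.10.9 did the rest. On simulated data of 9299 genes the fit recovered 45% of 100 genes changed 2-fold and 76% of 100 changed 4-fold. Of its 126 calls 5 were false. A gene that did not pass may therefore still have changed.

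Members and lists were chosen with earlier results of these data known. Named with values in every library are members that passed or did not overlap and the most abundant of each role; of other lists, genes that passed, or did not overlap and differed by at least 0.5 (log2). Depth, 9.16 to 15.6 gigabases, was estimated from coverage divided by FPKM. Alternatives were other pseudocounts, filters, units, scalings and transcript sets, no trend, a replicate block and each library left out. One marker gene is not reported here.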

Additional observations from a re-analysis of the deposited data

How the results depend on the processing

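The 64 genes called became 28 with a pseudocount of 0.1 TPM, 109 with assembled bases (coverage times length), 341 with coding coverage, and 7 to 16 with a library left out; median-of-ratios scaling gave 21 higher and 28 lower, against 20 and 44. With coding coverage 7 to 131 genes were called with a library left out. Same-numbered libraries did not deviate together (correlations of -0.049, 6.5e-05 and -0.014). These values cannot tell whether such libraries were prepared together, which the labels do not say. The replicate block left 1 gene called in TPM and 0 in coding coverage (2042 at an unadjusted p under 0.05). PSENEN no longer passed with the block (-1.58 in TPM, -2.14 in coding coverage). In TPM it also no longer passed with a pseudocount of 0.1 TPM (-1.98), with no filter or a minimum of 5 TPM (-1.58 each), or with any library left out (-1.66 to -1.45). In coding coverage PSENEN differed by -2.29 to -1.94 with a library left out. There the limma adjusted p ran from 0.0218 to 0.0540, so not every such fit lost the call. Members called were 0 in every TPM setting but FPKM, where CDT1 alone passed (1, limma adjusted p = 0.0486; 0.0506 to 0.349 in the other settings), and 1 in coding coverage, which became 0 with the block and with each library left out. The E2F, RB and G1/S list had 1 call in coding coverage. The members' median moved to 0.17 with assembled bases and ranged from 0.021 to 0.11 with a library left out, or 0.087 to 0.23 in coding coverage.

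Of the 39 members, 24 kept their sign in the 12 alternatives other than left-out libraries. Signs reversed with coding coverage for MCM5 (0.14), MCM7 (0.12), RRM2 (0.071), CDC6 (0.026), CDC45 (0.0099), GINS3 (0.56), GINS4 (0.10), CCNE1 (0.18), PRIM1 (0.36), RFC5 (0.041), ORC6 (0.049) and RPA3 (-0.21), and, with quantile normalization of that coverage, for RPA1 (0.014). They reversed with assembled transcripts for MCM5 (0.072), MCM7 (0.076), MCM10 (-0.042), CDC6 (0.058), GINS2 (-0.098), GINS3 (0.66), GINS4 (0.067), CCNE1 (0.49), LIG1 (-0.15) and RPA3 (-0.19). With FPKM they reversed for MCM7 (0.0056), CDC6 (0.029), GINS4 (0.010), RFC5 (0.048) and ORC6 (0.0072), and with assembled bases for MCM7 (0.0087), CDC6 (0.027), CDC45 (0.019), GINS4 (0.13) and RFC5 (0.085). Quantile normalization reversed CDC6 (0.020) and RFC5 (0.036), and median-of-ratios scaling RFC5 (0.020). Leaving out a library gave, in TPM, CCNE1 -0.37 to 0.13, CDC45 -0.38 to 0.060, CDC6 -0.10 to 0.013, GINS2 -0.084 to 0.24, GINS4 -0.25 to 0.13, MCM6 -0.090 to 0.11, ORC6 -0.24 to 0.062, PRIM1 -1.22 to 0.0100, RFC4 -0.095 to 0.20, RFC5 -0.11 to 0.064 and RPA3 -0.036 to 0.51. In coding coverage it gave CCNE1 -0.16 to 0.47, CDC45 -0.093 to 0.15, CDC6 -0.068 to 0.16, CHAF1B -0.017 to 0.28, GINS4 -0.0067 to 0.23, LIG1 -0.12 to 0.19, MCM10 -0.020 to 0.14, ORC6 -0.064 to 0.24, RFC5 -0.026 to 0.14 and RRM2 -0.063 to 0.17. GINS3's leading annotated transcript, GINS3-202, held 85.1% of annotated TPM with the PSENEN siRNA and 36.9% with the mismatch siRNA. Once assembled transcripts were counted its share was 34.1% and 34.9%, a difference of -0.78 percentage points. The cause of these shifts was not tested. With no read counts, depth sets no stated limit on single genes.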
